A study of Homo sapiens with 2 samples.

Results

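TNF superfamily ligands, their receptors and the TRAF adaptors were measured as RNA in TPC-1 cells, a line grown from a human papillary carcinoma of the thyroid, after transfection with an siRNA against XPR1 (the siXPR1 library) or with a control siRNA (the siControl library). XPR1 exports phosphate from cells. The members are the protein-coding genes whose symbol is TNF, starts with TNFSF or TNFRSF followed by a digit, or is TRAF followed by 1 digit, with hyphenated read-through genes left out. This gave 40 of the 58884 genes in the table: 12 ligands, 21 receptors and 7 TRAFs. There was 1 library per group, so the differences below have no replicates behind them, the conditions could not be tested against each other, and higher and lower describe these 2 libraries.

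Ligands of this superfamily are mostly trimers anchored in the membrane or shed from it, and each binds 1 or more receptors. Receptors with a cytoplasmic death domain can recruit caspases through adaptors, while the others bind TRAF proteins, which carry ubiquitin ligases and kinases to the receptor and lead to NF-kB and JNK signalling. Decoy and soluble receptors bind ligand without passing on a full signal. Several genes of the pathway, TRAF1 and TNFAIP3 among them, are themselves known targets of NF-kB.

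XPR1 transcript was 5.31 TPM in the siXPR1 library and 39.2 TPM in the siControl library, 13.5% of the control level. TPM is a length-corrected share of all transcripts of a library, so levels can be compared between genes. The reads behind the values were recovered from the TPM and gene lengths, with about 15153195 in the siXPR1 library and 15777908 in the siControl library. The 95% Clopper-Pearson intervals in brackets come from those reads and cover counting error only. The marker genes went partly with the label: the thyroid factor PAX8 was 408.6 and 588.1 TPM, the keratin KRT18 93.98 and 135.9 TPM, KRT8 37.0 and 49.8 TPM, and RET 34.5 and 34.7 TPM in the siXPR1 and siControl libraries. The other epithelial markers were low: EPCAM was listed at 0 in both libraries, the cadherin CDH1 was 0.0404 and 0.116 TPM, and the keratin KRT19 was 1.05 and 0.304 TPM. The highest of 10 leukocyte markers, a group included because many superfamily members are immune genes, was 0.598 TPM in the siXPR1 library and 0.736 TPM in the siControl library, and their summed levels were 1.82 and 1.93 TPM. Of those 10, 6 were at 0 in the siXPR1 library and 5 in the siControl library, with the T cell marker CD3E and the B cell marker MS4A1 at 0 in both. The highest of 5 endothelial markers was 0.859 and 1.47 TPM.

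Most of the family's transcripts were receptor transcripts. The 40 genes summed to 1551 TPM in the siXPR1 library and 2368 TPM in the siControl library. Receptors made up 1264 TPM (81.5%) and 1836 TPM (77.5%) of these sums, TRAFs 198.8 and 352.9 TPM, and ligands 88.6 and 178.8 TPM. The sum was lower in the siXPR1 library for each of the 3 roles. In such bulk RNA, fewer cells with a transcript and less transcript per cell cannot be told apart.

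**Figure D1:**
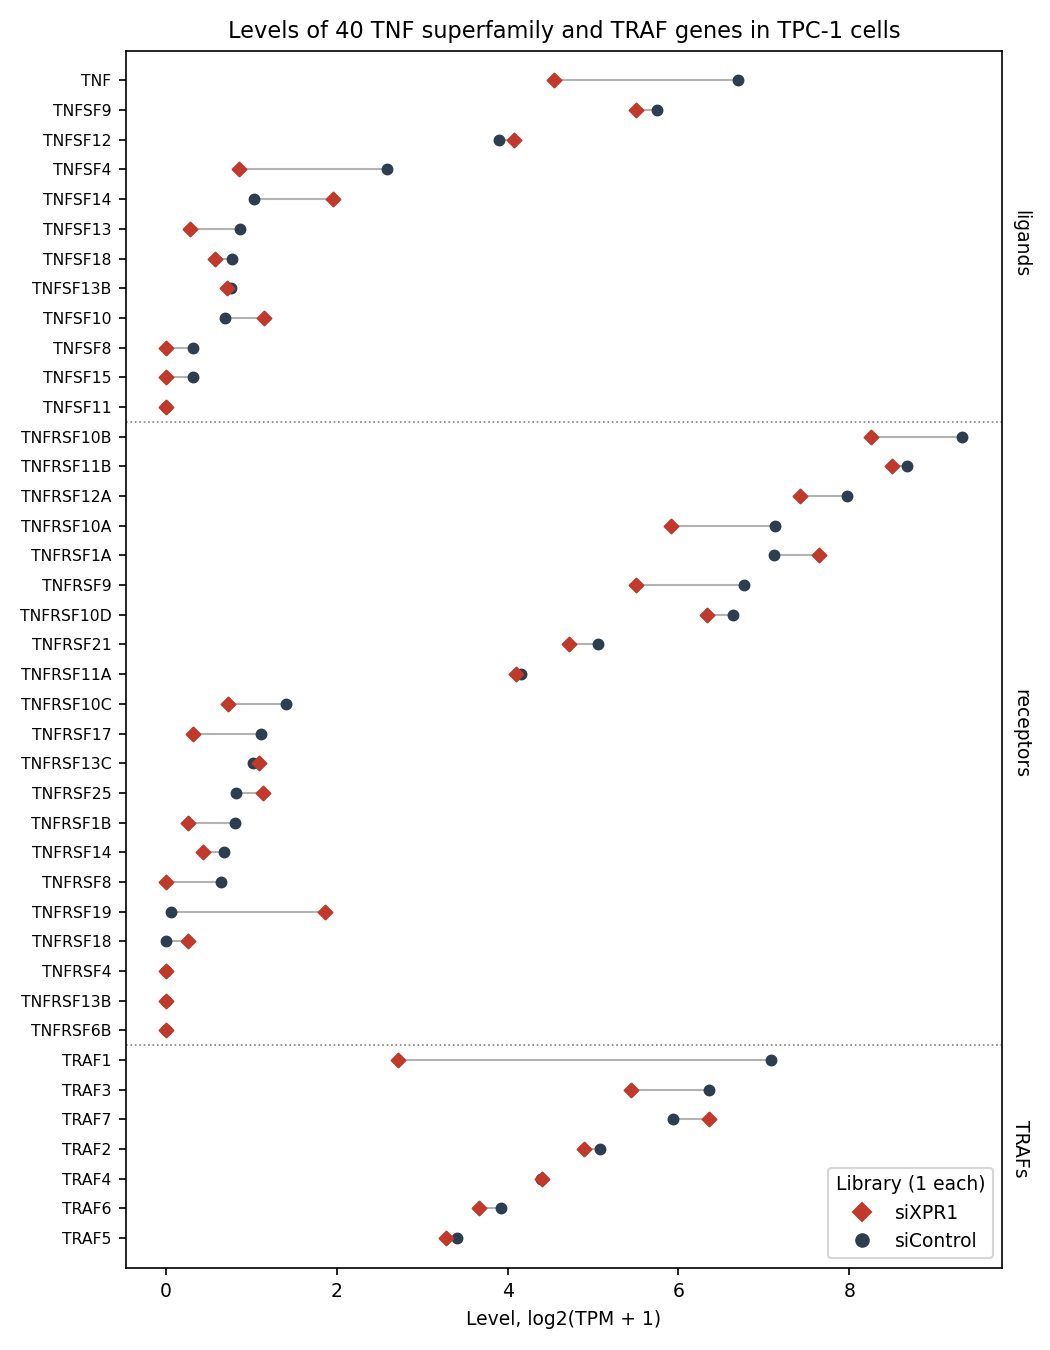
Level of each of the 40 genes as log2(TPM + 1), with the siXPR1 library as red diamonds and the siControl library as dark circles, 1 library each, and genes grouped by role. TRAF1 shows the longest gap, and the lower part of each of the ligand and receptor groups lies near 0 in both libraries.

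A mean of at least 1 TPM over both libraries was reached by 24 of the 40 genes: 5 ligands, 12 receptors and all 7 TRAFs. Of these 24, TRAF1, TNF, TNFSF4, TNFRSF9, TNFRSF10A and TNFRSF10B were at least 2-fold lower in the siXPR1 library on the log2(TPM + 1) scale, and TNFRSF19 was at least 2-fold higher. With a pseudocount of 5 in place of 1, the calls of TNFSF4 (-0.79) and TNFRSF19 (0.60) ended. Among all 11698 protein-coding genes at that level, 4.57% were at least 2-fold lower and 8.75% at least 2-fold higher. So 6 of 24 members were lower, or 25%, and 1 of 24 was higher, or 4.17%. At 1.5-fold, 8 of the 24 were lower and 2 higher, beside 11.1% and 20.7% of protein-coding genes. The median difference of the 24 was -0.25 on that scale, against 0.10 for the protein-coding genes, and 17 members lay below 0 and 7 above, with TRAF4 moving to the lower side under 3 other scalings. These counts describe a chosen family and carry no test, and 3 of the members passed the level only through 1 library: TNFRSF19 through siXPR1, and TNFSF4 and TNFRSF10C through siControl. For 18 of the 24 the counting interval of the ratio excluded equality, a share close to the 71.5% of all protein-coding genes for which it did.

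**Figure D2:**
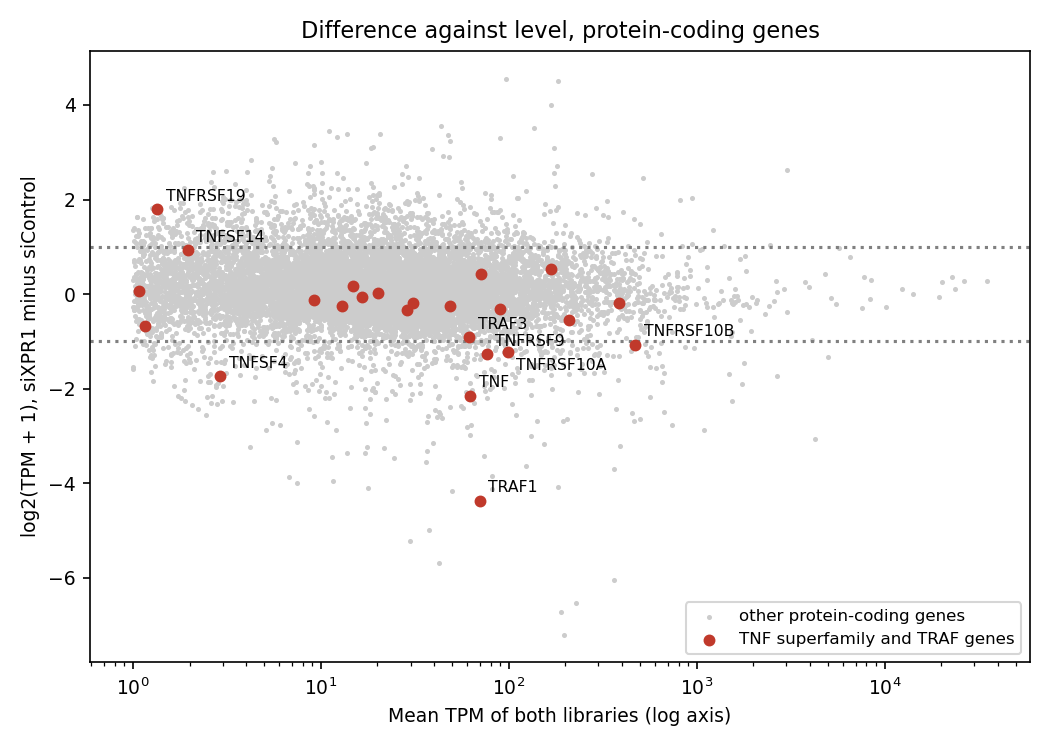
Difference on the log2(TPM + 1) scale, siXPR1 minus siControl, against the mean TPM of both libraries on a log axis, for protein-coding genes that average 1 TPM or more. Grey points are other genes, red points the 24 members, dotted lines mark a 2-fold difference, and TRAF1 at -4.37 is the member farthest from 0.

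Promoter sequence is shown for TRAF1, TNF and TNFRSF9, at least 2-fold lower in the siXPR1 library, and for TRAF3, which stayed under 2-fold. The plan was to print members at least 2-fold apart, so TRAF3 was added outside it. The windows of TNFRSF9 and TRAF3 hold a match to a known motif, and those of TRAF1 and TNF hold none. TNFSF4 and TNFRSF19, also at least 2-fold apart and within the plan, were searched but are not printed. RefSeq windows of 300 bases on GRCh38.p14, running from 250 bases before to 50 after a start site, were used for 29 of the 40 members. TNFRSF10A and TNFRSF10B, also at least 2-fold lower, were not among the 29 and were not searched. The windows of the 29 members were searched on both strands for the NF-kB consensus of 10 bases and for the AP-1 motif TGANTCA. Capitals mark the matches, and the TRAF1 window is that of the start farthest upstream of 3.
TRAF1, chr9:120929122-120929421, minus strand: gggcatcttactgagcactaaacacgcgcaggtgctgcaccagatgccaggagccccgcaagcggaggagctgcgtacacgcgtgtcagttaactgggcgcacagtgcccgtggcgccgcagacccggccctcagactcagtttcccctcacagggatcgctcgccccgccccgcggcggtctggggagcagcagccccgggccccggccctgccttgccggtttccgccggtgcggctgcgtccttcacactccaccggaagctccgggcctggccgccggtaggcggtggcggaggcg
TNF, chr6:31575315-31575614, plus strand: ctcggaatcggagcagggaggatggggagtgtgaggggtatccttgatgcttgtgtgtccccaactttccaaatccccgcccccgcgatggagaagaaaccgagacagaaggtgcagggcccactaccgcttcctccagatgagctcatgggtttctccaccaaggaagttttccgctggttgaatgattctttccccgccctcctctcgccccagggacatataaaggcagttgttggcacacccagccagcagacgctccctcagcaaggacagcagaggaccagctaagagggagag
TNFRSF9, chr1:7940790-7941089, minus strand: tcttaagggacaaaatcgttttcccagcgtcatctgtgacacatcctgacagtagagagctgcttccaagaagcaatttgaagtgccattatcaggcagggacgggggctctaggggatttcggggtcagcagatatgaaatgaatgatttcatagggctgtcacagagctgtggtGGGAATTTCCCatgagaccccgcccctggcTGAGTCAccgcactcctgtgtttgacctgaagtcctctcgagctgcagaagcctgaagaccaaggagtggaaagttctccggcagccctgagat
TRAF3, chr14:102777199-102777498, plus strand: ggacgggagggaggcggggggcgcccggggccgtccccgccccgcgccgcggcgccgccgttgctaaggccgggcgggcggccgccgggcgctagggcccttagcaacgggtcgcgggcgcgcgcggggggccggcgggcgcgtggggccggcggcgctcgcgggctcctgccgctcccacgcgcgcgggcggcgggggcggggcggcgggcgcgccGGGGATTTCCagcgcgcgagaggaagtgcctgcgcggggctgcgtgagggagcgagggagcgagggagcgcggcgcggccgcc
The NF-kB consensus was found in 9 of the 38 windows of members, or 23.7%, against 11.3% of all 35116 windows. The AP-1 motif was found in 5 of the 38, or 13.2%, against 7.71% of all windows. With windows for 29 of 40 members, or 72.5%, coverage was under the 80% set for such a comparison, so the shares are void as a comparison of the family with other genes. In the TNFRSF9 window, overlapping NF-kB matches on opposite strands began at position -74 and an AP-1 match began at position -44, counted from the start site as 0. The TRAF3 window held 1 NF-kB match, at position -33. The windows of TNF and TNFSF4 and the 3 windows of TRAF1 held neither motif, which says only that these letters are not in these windows. Of the 2 windows of TNFRSF19, 1 held an NF-kB match. The windows of TNFSF14, described below, held NF-kB matches and an AP-1 match. A match is a description of the letters, and binding was not measured.

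Among the ligands, TNF (ENSG00000232810, chromosome 6, 31575567 to 31578336, GRCh38), the cytokine that gives the family its name, was 22.3 TPM in the siXPR1 library and 102.5 TPM in the siControl library. It was 4.60-fold lower (3.85 to 5.50), from about 152 and 725 reads. TNFSF4 (chromosome 1, 173183734 to 173207313), the ligand of the T cell costimulatory receptor TNFRSF4, had 0.808 TPM in the siXPR1 library and 5.02 TPM in the siControl library. TNFSF4 was 6.22-fold lower (3.45 to 12.2) from about 13 and 84 reads. These 2 ligands had the largest differences of the 5 ligands compared. The intervals of TNF and TNFSF4 exclude equality but are approximate and cover counting error only. TNFSF4 reached the level for comparison only through the siControl library.

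TNFSF9, the ligand of TNFRSF9, was 44.2 TPM in the siXPR1 library and 52.9 TPM in the siControl library, a ratio of 0.834 (0.715 to 0.975). It thus was the most abundant ligand transcript of the siXPR1 library, while TNF was that of the siControl library. TNF was present at 0.505 times the TPM of TNFSF9 in the siXPR1 library and 1.94 times in the siControl library. TNFSF12, which encodes TWEAK, was 15.9 and 13.9 TPM with an interval of the ratio that included equality (0.876 to 1.49). It shares 33.2% of its exonic bases with other genes, mainly a read-through gene with TNFSF13, so its reads could be split. TNFSF14, which encodes LIGHT, was 2.89 TPM in the siXPR1 library and 1.04 TPM in the siControl library, a ratio of 2.77 (1.65 to 4.82) from 56 and 21 reads. It was the ligand with the highest ratio among the 5 compared, and on the log2(TPM + 1) scale its difference of 0.93 stayed just under 2-fold.

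The other 7 ligands had a mean under 1 TPM. TNFSF10, which encodes TRAIL, was 1.22 TPM from 17 reads in the siXPR1 library and 0.620 TPM from 9 reads in the siControl library, and the interval of that ratio included equality (0.828 to 4.998). TNFSF13B, the B cell survival factor BAFF, was 0.644 and 0.697 TPM, TNFSF18 0.491 and 0.708 TPM, and TNFSF13, or APRIL, 0.216 and 0.833 TPM, with 2 and 8 reads. TNFSF13 shares 55.5% of its exonic bases with its read-through gene with TNFSF12, so its reads could be split. TNFSF15 was listed at 0 in the siXPR1 library and had 8 reads in the siControl library, and the 95% interval of its ratio ran from 0 to 0.609. TNFSF8 was at 0 with 3 reads in the siControl library. TNFSF11, or RANKL, was listed at 0 in both libraries, which, at the limit of 3 reads that a count of 0 allows, leaves room for up to 0.270 TPM in the siXPR1 library and 0.260 TPM in the siControl library.

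**Figure D3:**
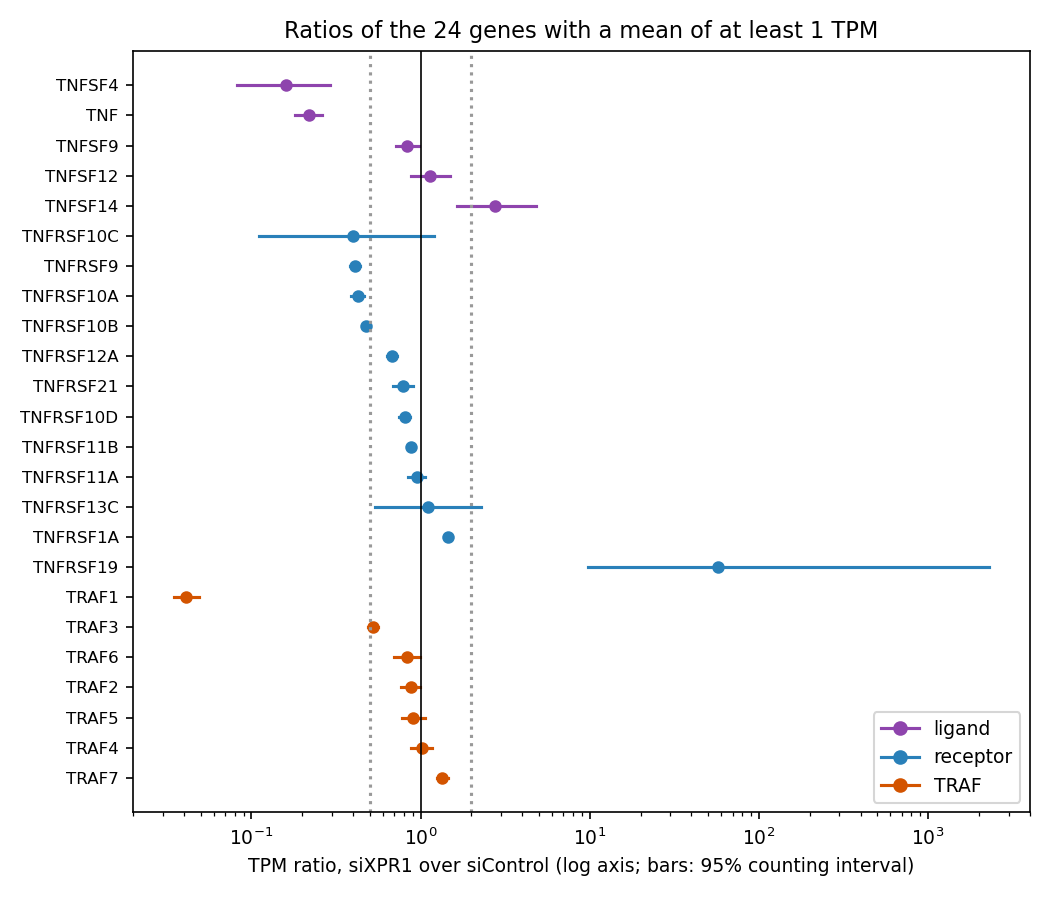
Ratio of TPM, siXPR1 over siControl, on a log axis for the 24 genes that average 1 TPM or more, by role, with 95% counting intervals as bars and dotted lines at 2-fold. TRAF1 stands at 0.0412, TNFSF4 at 0.161 and TNF at 0.218, and the wide bar of TNFRSF19 comes from a single read in the siControl library.

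The death receptors for TRAIL, with TNFRSF9, had the largest differences among the abundant receptors. TNFRSF10B (ENSG00000120889, chromosome 8, 23020133 to 23069179) was 303.4 TPM in the siXPR1 library and 638.8 TPM in the siControl library, 2.11-fold lower (2.04 to 2.17). TNFRSF10A, at 23190452 to 23225126 on the same chromosome, had 59.3 TPM in the siXPR1 library and 139.0 TPM in the siControl library, and was 2.35-fold lower (2.15 to 2.56). The decoy receptor TNFRSF10D, a neighbour in the same cluster, was 79.8 and 99.0 TPM, 1.24-fold lower (1.15 to 1.34). The counting intervals of TNFRSF10A and TNFRSF10B do not reach that of TNFRSF10D. They leave out variation between libraries, and the reads of TNFRSF10B and TNFRSF10D are approximate, so a difference between the receptors was not tested. The other decoy, TNFRSF10C, was 0.659 and 1.65 TPM from 5 and 13 reads, and the interval of its ratio included equality (0.112 to 1.195). The summed level of both death receptors was 4.51 times that of both decoys in the siXPR1 library and 7.73 times in the siControl library.

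Values in this cluster depend on how reads were assigned. TNFRSF10A shares 16.6% of its exonic bases with other genes, TNFRSF10A-AS1 among them, an antisense transcript that was 36.3 TPM in the siXPR1 library and 89.3 TPM in the siControl library. Strand was not recorded by the library kit, and the overlap's reads cannot be told apart. The 4 genes are also similar in sequence, and how reads matching several of them were counted is not given in the sources used here. TNFRSF10C shares 39.3% of its exonic bases.

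TNFRSF1A (ENSG00000067182, chromosome 12, 6328757 to 6342114), the broadly expressed death-domain receptor for TNF, went the other way. It was 199.3 TPM in the siXPR1 library and 137.9 TPM in the siControl library, a ratio of 1.44 (1.37 to 1.52) from 3240 and 2331 reads. TNFRSF1B, the other TNF receptor, which binds TRAF2, was 0.196 TPM from 3 reads and 0.753 TPM from 12 reads. Its ratio was 0.260 (0.0471 to 0.963), at a mean under 1 TPM. The level of TNFRSF1A was 8.93 times that of TNF in the siXPR1 library and 1.35 times in the siControl library. TNFRSF21, or death receptor DR6, was 25.4 and 32.4 TPM, a ratio of 0.785 (0.684 to 0.901). TNFRSF25, a death-domain receptor of T cells, was 1.21 and 0.775 TPM with 21 and 14 reads, and the interval of its ratio (0.756 to 3.31) included equality.

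Among soluble receptors, TNFRSF11B, which encodes osteoprotegerin, a secreted trap for RANKL and TRAIL, was 359.8 TPM in the siXPR1 library and 407.4 TPM in the siControl library, a ratio of 0.883 (0.847 to 0.921). It was the most abundant receptor transcript of the siXPR1 library, where TNFRSF10B was second, and the order was the reverse in the siControl library. The counting intervals of these levels do not overlap in either library: 348.9 to 371.0 TPM for TNFRSF11B and 296.0 to 311.0 TPM for TNFRSF10B in the siXPR1 library, and 396.1 to 419.1 TPM and 628.2 to 649.5 TPM in the siControl library. The reads of both genes are approximate, and variation between libraries was not measured. TNFRSF6B, a soluble decoy, was listed at 0 in both libraries. All of its exonic bases (100%) are shared with other genes, mainly its read-through with RTEL1, so the 0 may not be read as absence.

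TNFRSF9 (ENSG00000049249, chromosome 1, 7915894 to 7943165), a TRAF-binding costimulatory receptor of T cells, was 44.2 TPM in the siXPR1 library and 108.1 TPM in the siControl library, 2.44-fold lower (2.28 to 2.62) from 1137 and 2888 reads. Its ligand TNFSF9 differed less, so the receptor stood at 1.00 times its ligand in the siXPR1 library and 2.04 times in the siControl library. TNFRSF12A, or Fn14, the receptor of TWEAK, was 169.9 and 250.05 TPM, 1.47-fold lower (1.37 to 1.58). TNFRSF11A, or RANK, was 16.1 and 16.9 TPM, and the interval of its ratio included equality (0.848 to 1.06).

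TNFRSF19 (chromosome 13, 23570370 to 23676104), a receptor also known as TROY, was 2.65 TPM from 55 reads in the siXPR1 library and 0.0463 TPM from 1 read in the siControl library. The ratio was 57.2 with an interval of 9.84 to 2298. TNFRSF19 had the highest ratio among the 24 members compared, at a low level in both libraries. TNFRSF13C, the BAFF receptor of B cells, was 1.12 and 1.02 TPM, from 18 and 17 reads.

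The remaining TRAF-binding receptors are mostly known from lymphocytes, and each had a mean below 1 TPM. TNFRSF17, the plasma cell receptor BCMA, was 0.243 and 1.17 TPM from 1 and 6 reads, and TNFRSF14, or HVEM, 0.356 and 0.610 TPM. TNFRSF8, or CD30, was listed at 0 in the siXPR1 library and was 0.559 TPM from 9 reads in the siControl library, with an interval of the ratio from 0 to 0.527. TNFRSF18 had 1 read in the siXPR1 library and none in the siControl library. TNFRSF4 and TNFRSF13B were listed at 0 in both. For TNFRSF4, the count of 0 allows up to 0.429 TPM in the siXPR1 library and 0.413 TPM in the siControl library.

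**Figure D4:**
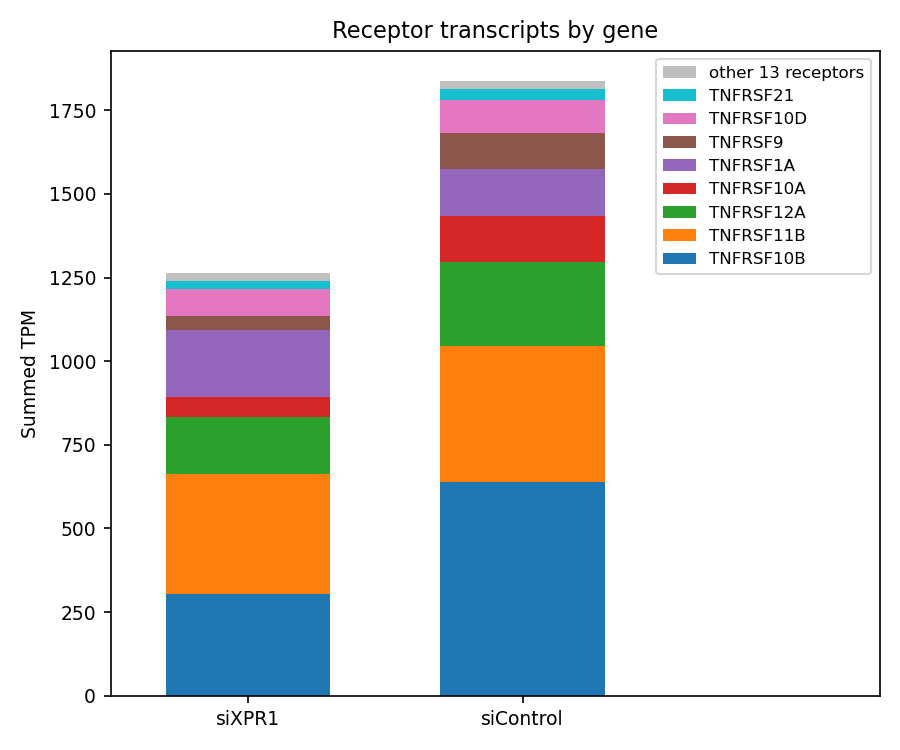
Summed TPM of the receptor genes in each library, siXPR1 on the left and siControl on the right, stacked by gene with the 8 most abundant in siControl shown and the other 13 pooled. The TNFRSF10B segment is smaller and the TNFRSF1A segment larger in the siXPR1 bar.

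By class, among the 21 receptors of the rule, death-domain receptors summed to 588.6 TPM in the siXPR1 library and 948.9 TPM in the siControl library. These are 46.6% and 51.7% of the summed TPM of those receptors. Receptors with other symbols, such as the death receptor FAS, CD40 and LTBR, are not in these sums. Decoy and soluble receptors summed to 440.3 and 508.1 TPM, or 34.8% and 27.7%. The other receptors summed to 235.0 and 379.2 TPM, or 18.6% and 20.7%. Within the receptor total, TNFRSF10B held 24.01% in the siXPR1 library and 34.8% in the siControl library, and TNFRSF1A 15.8% and 7.51%. The smaller total of the siXPR1 library therefore had a larger share of decoy and soluble receptors. TNFRSF11B alone held 28.5% of the receptor total in the siXPR1 library and 22.2% in the siControl library.

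TRAF1 (ENSG00000056558, chromosome 9, 120902393 to 120929173), a TRAF without the RING finger of its relatives and a known NF-kB target, was 5.56 TPM in the siXPR1 library and 135.0 TPM in the siControl library. It was 24.3-fold lower (20.5 to 28.8), from about 146 and 3674 reads, so the interval is approximate. Its difference ranked 8 from the lowest among the 11698 protein-coding genes. TRAF2, its partner and the adaptor that brings the ubiquitin ligases BIRC2 and BIRC3 to receptors, was 28.8 and 32.9 TPM, a ratio of 0.876 (0.769 to 0.998). TRAF1 transcript was thus present at 0.193 times that of TRAF2 in the siXPR1 library and 4.10 times in the siControl library. TRAF1 was the least abundant of the 7 TRAFs in the siXPR1 library and the most abundant in the siControl library.

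TRAF3 (chromosome 14, 102777476 to 102911500), which with TRAF2 keeps the kinase MAP3K14 at a low level, was 42.5 TPM in the siXPR1 library and 80.9 TPM in the siControl library, 1.90-fold lower (1.79 to 2.03). TRAF7, which has WD40 repeats in place of the TRAF domain, was 81.3 and 60.4 TPM, a ratio of 1.35 (1.24 to 1.45), and 21.2% of its exonic bases are shared with CASKIN1. TRAF6, the adaptor of RANK and of interleukin-1 receptors, was 11.7 and 14.1 TPM, a ratio of 0.831 (0.697 to 0.992). For TRAF4, at 20.2 and 19.9 TPM, and TRAF5, at 8.74 and 9.64 TPM, the intervals included equality (0.878 to 1.17 and 0.778 to 1.06). TRAF4 shares 16.9% of its exonic bases with other genes. Apart from TRAF1 and TRAF3, the TRAFs lay within 1.5-fold in these libraries.

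Ligands and receptors were then set side by side as known binding pairs. Of 24 pairs, both partners were at 1 TPM or more in 8 pairs in the siXPR1 library and in 4 pairs in the siControl library, and the 4 pairs were among the 8. They were TNF with TNFRSF1A, TNFSF12 with TNFRSF12A, TNFSF14 with LTBR, the lymphotoxin beta receptor, and TNFSF9 with TNFRSF9. The other 4 pairs were those of TNFSF10 with TNFRSF10A, TNFRSF10B, TNFRSF10D and TNFRSF11B, and they rest on the 17 and 9 reads of TNFSF10. TNFSF4 and TNFSF11 had no such partner or level, since TNFRSF4 and TNFSF11 were listed at 0 in both libraries.

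Superfamily genes with other symbols, which the rule leaves out, were within 2-fold on the log2(TPM + 1) scale where they were compared. LTB, which encodes lymphotoxin beta and lies beside TNF (chromosome 6, 31580525 to 31582522), was 22.8 TPM in the siXPR1 library and 37.5 TPM in the siControl library. LTA, on the other side of TNF, was 0.284 and 1.09 TPM from 2 and 8 reads. Of the 5 receptors compared, CD40 was 71.2 and 106.3 TPM, a ratio of 0.670 (0.610 to 0.736). The death receptor FAS was 25.7 and 21.6 TPM, a ratio of 1.19 (1.04 to 1.37), and LTBR 94.4 and 79.8 TPM, a ratio of 1.18 (1.12 to 1.26). EDA2R, an ectodysplasin receptor encoded on the X chromosome, was 21.1 and 10.9 TPM.

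Downstream genes were read from 3 further lists, of adaptors and kinases, of regulators and of shedding proteases. With the genes of other symbols these lists hold 63 genes, of which 50 reached a mean of 1 TPM. Of the 50, 6 were at least 2-fold lower (12%, beside 4.57% of protein-coding genes) and 1 at least 2-fold higher (2%, beside 8.75%), and their median difference was -0.31. In the list of 24 compared adaptors, ubiquitin ligases and kinases, 3 were lower and 1 higher. RIPK2, a kinase best known from NOD receptor signalling, was 135.3 TPM in the siXPR1 library and 431.6 TPM in the siControl library, 3.19-fold lower (3.02 to 3.37). BIRC3, the NF-kB-induced ubiquitin ligase of the TRAF2 complex, was 154.3 and 339.8 TPM, or 2.20-fold lower (2.13 to 2.28). Its relative BIRC2 was 50.4 and 77.5 TPM, 1.54-fold lower (1.42 to 1.67). RBCK1, a subunit of the linear ubiquitin ligase, was 70.6 and 146.0 TPM, 2.07-fold lower (1.93 to 2.22). MAP3K14, the kinase that TRAF3 helps to degrade, was 11.8 and 4.96 TPM, a ratio of 2.38 (1.92 to 2.97). These values are RNA, the protein was not measured, and a link with the level of TRAF3 was not tested. EDARADD, of the same list, was 5.50 and 2.26 TPM, a ratio of 2.43 (1.65 to 3.66). On the log2(TPM + 1) scale its difference of 0.996 stayed just under 2-fold, and it was named after its value was seen. RIPK1, the kinase of the TNFRSF1A complex, was 57.6 and 68.8 TPM, a ratio of 0.837 (0.769 to 0.911).

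Of 16 compared regulators, 3 were at least 2-fold lower and none higher. TNFAIP3, the deubiquitinase A20 that limits TNF signalling, was 30.1 TPM in the siXPR1 library and 279.3 TPM in the siControl library, 9.26-fold lower (8.53 to 10.1). TNIP3, which binds A20, was 2.10 and 21.9 TPM, 10.4-fold lower (7.28 to 15.5). TAX1BP1, an A20 cofactor, was 19.3 and 41.7 TPM, 2.16-fold lower (1.98 to 2.36). None of the 4 compared shedding genes passed 2-fold, although ADAM10 came close, at 138.3 and 69.3 TPM, a ratio of 1.99 (1.93 to 2.07). ADAM10 was named after its value was seen. ADAM17, the protease that releases TNF, was also chosen after its value was seen and was 40.03 and 59.8 TPM.

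**Figure D5:**
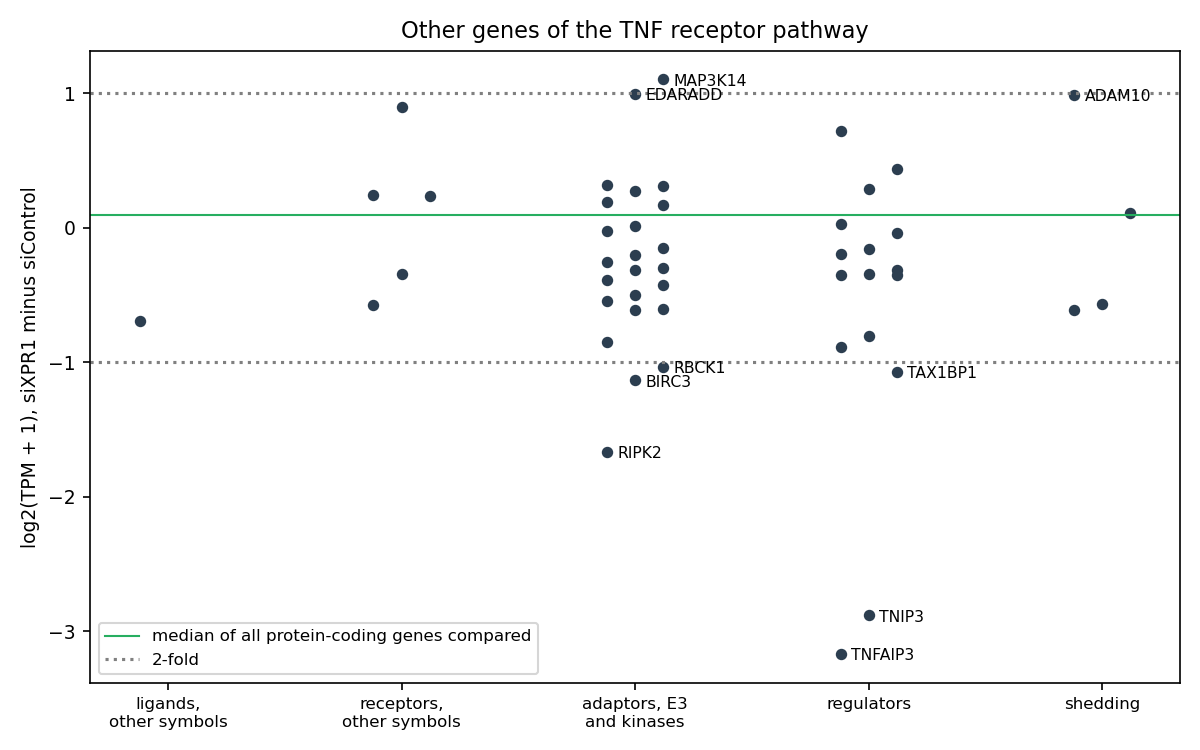
Difference on the log2(TPM + 1) scale, siXPR1 minus siControl, for the 50 pathway genes that average 1 TPM or more, 1 point per gene, by list. The green line is the median of all protein-coding genes compared and dotted lines mark 2-fold; TNFAIP3 and TNIP3 lie lowest and MAP3K14 highest.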

How the data were processed

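RNA of TPC-1 cells was sequenced in 2 libraries. In 1 the cells were transfected with an siRNA targeting XPR1 and in the other with a control siRNA. Samples were grouped by the treatment label. RNeasy Plus kits and the TruSeq RNA kit v2 were used, per the labels' protocols; that kit records no strand. GRCh38, featureCounts 2.0.0 and Trimmomatic 0.38 are named in the submitters' processing notes, with FastQC and MultiQC. Aligner, annotation release and siRNA sequences are not given in the sources used. The authors deposited TPM values for 58884 Ensembl genes, and each column sums to 1000000.

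Symbols came from a table of identifiers and otherwise from GENCODE 29, which also gave gene types, coordinates and the length of the union of exons. TPM times length fell on whole multiples of 1 step per library: up to 10 reads, 92.5% of genes in the siXPR1 library and 92.4% in the siControl library came within 0.01 of a whole number, and over all genes above 0, 71.6% and 72.0% did. Of the 24 members compared, 12 had whole reads in both libraries, and for the others the read numbers and intervals are approximate. Without molecular identifiers, reads need not be independent molecules.

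With 1 library per group no p-value is given. Differences are log2(TPM + 1), siXPR1 minus siControl, a scale that understates low genes. Folds are TPM ratios. Genes that average 1 TPM or more were compared and called at 2-fold. Named genes are all members, the pathway genes at least 2-fold apart, and TNFAIP3, BIRC2, BIRC3, FAS, CD40, LTBR, RIPK1 and XPR1. LTA, LTB, EDA2R, EDARADD, the ADAM genes and overlapping genes were named after their values were seen, and marker genes as a check of the label. The members and lists were chosen with earlier results of these data known. Alternatives were other pseudocounts, floors, scalings, a 1.5-fold threshold and recovered reads. Calls and intervals were also run on simulated reads drawn with counting error only, which cannot show variation between libraries. Python 3.11.15, pandas 2.3.3 and SciPy 1.17.1 were used.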

Additional observations from a re-analysis of the deposited data

How the results depend on the processing

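The 6 members at least 2-fold lower numbered 5 to 8 under every alternative tried, which were pseudocounts of 0.1 and 5, no floor and floors of 0.1 and 5 TPM, scaling by median of ratios, by upper quartile and by trimmed mean, recovered reads scaled to library totals, a 1.5-fold threshold and omission of mitochondrial genes. The count of members at least 2-fold higher, 1, was 2 with a pseudocount of 0.1, with recovered reads and at 1.5-fold, and 0 with a pseudocount of 5 and from 5 TPM. Calls gained were TNFRSF10C (-1.20) and TNFSF14 (1.39) with a pseudocount of 0.1, TNFSF14 again with recovered reads, and TRAF3 (-1.003) with upper-quartile scaling. For the pathway lists the count of higher genes, 1, was 2 with a pseudocount of 0.1 and with recovered reads, 0 with a pseudocount of 5 and 5 at 1.5-fold. Their count of lower genes, 6, was 13 at 1.5-fold, where 11.1% of protein-coding genes were lower and 20.7% higher. The XPR1 difference of -2.67 was -2.10 with a pseudocount of 5, which shrinks differences by construction. TRAF4 turned from 0.02 to -0.0326 under median-of-ratios, -0.0661 under upper-quartile and -0.0482 under trimmed-mean scaling. Of 189 values of single members under these alternatives, 178 moved by less than their counting interval, 8 moved by more without turning, and 3 turned, all of TRAF4. Intervals are wide for genes with few reads, so the 178 do not measure robustness. TNFRSF19 is among them with a pseudocount of 5, although it went from 1.80 to 0.60 and its call ended. No paired analysis was possible because there is only 1 library in a group, so leaving out a replicate was not possible either. Depth limits the 16 members with a mean under 1 TPM, which had at most 21 reads in either library.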
